A study of Homo sapiens with 12 samples.

Results

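The N-methyl-D-aspartate (NMDA) receptor subunit genes GRIN1, GRIN2A, GRIN2B, GRIN2C, GRIN2D, GRIN3A and GRIN3B were followed through human embryonic stem cells (hESC) and incipient mesoderm-like cells (iMeLC) with and without the catalytic domain of TET1. They were chosen by gene symbol and make up 7 of the 36762 symbols counted. The choice was made with the family's levels and genotype differences in these libraries already known, so those differences are given as a description. Differences between stages draw on the same libraries and levels and are likewise a description. TET1 is a dioxygenase that oxidises 5-methylcytosine, the methylated base of CpG sites, and the series asked what its catalytic activity contributes to the choice of a germ cell fate. The compared groups were CDKO hESC, CTRL hESC, CDKO iMeLC and CTRL iMeLC, with 3 bulk RNA-seq libraries in each and 12 in all. CDKO stands for lines with a TET1 catalytic domain knockout and CTRL for control lines. All lines came from UCLA1, an established human embryonic stem cell line, and are named CDKO1102, CDKO1105 and CDKO1312, and CTRL1101, CTRL1106 and CTRL1109. iMeLC are the short-lived intermediate that stem cells pass through on the way to primordial germ cell-like cells. The hESC columns give the genotype and a number from 1 to 3 but no line, so hESC libraries are named by that number. Whether each line is a single clone is not stated in the labels.

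NMDA receptors are glutamate-gated cation channels built from several subunits. GRIN1 encodes GluN1, the obligatory subunit, which binds the co-agonist glycine or D-serine. The GRIN2 genes encode the GluN2 subunits, which bind glutamate and set the channel's kinetics and magnesium block, and the GRIN3 genes encode GluN3 subunits, which bind glycine and lower calcium entry. In neurons the channel opens when glutamate is bound and depolarisation relieves the magnesium block, and the calcium that enters drives synaptic plasticity. GRIN2B and GRIN2D are known as the GluN2 genes of the early brain, with GRIN2A and GRIN2C rising later. Embryonic stem cells and mesoderm-like cells are not neurons, and nothing in RNA counts shows whether channels are assembled.

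In the GRCh38 coordinates of GENCODE release 29, GRIN1 (ENSG00000176884) lies at chr9:137138390-137168762 on the plus strand. GRIN2A (ENSG00000183454) lies at chr16:9753404-10182754 on the minus strand, GRIN2B (ENSG00000273079) at chr12:13437942-13981957 on the minus strand and GRIN2C (ENSG00000161509) at chr17:74842023-74861504 on the minus strand. GRIN2D (ENSG00000105464) lies at chr19:48394875-48444931 on the plus strand, GRIN3A (ENSG00000198785) at chr9:101569353-101738580 on the minus strand and GRIN3B (ENSG00000116032) at chr19:1000419-1009732 on the plus strand. The merged exons of the 7 genes run from 3.28 kb (GRIN3B) to 30.94 kb (GRIN2B). Exons overlap a gene on the opposite strand for GRIN1 (LRRC26, over 5 bases), GRIN2B (AC007527.1 and AC007527.2, over 809 bases) and GRIN3B (TMEM259, over 85 bases). No source used here gives the strand setting of the counting, so reads in those overlaps cannot be assigned with certainty.

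RefSeq promoter windows (GRCh38.p14, 250 bases before and 50 after an annotated start) matched GRIN2A, GRIN2B, GRIN2D, GRIN3A and GRIN3B, with 3 windows for GRIN2B and 1 for each other gene. Since TET1 acts at methylated CpG sites, CpG dinucleotides were counted in them. The GRIN2D window held 8 and the GRIN2A window 13, against a median of 14 over 35116 RefSeq promoters. The GRIN2B windows held 17, 22 and 36, GRIN3A held 21 and GRIN3B held 34. No window matched GRIN1 or GRIN2C, and a link between CpG content and RNA level was not tested. GRIN2D had the highest RNA level of the family and the fewest CpG of these windows. The 250 bases before its RefSeq start are therefore shown 5′ to 3′, chr19:48393418-48393667 on the plus strand, with each CpG in capitals.
GRIN2D: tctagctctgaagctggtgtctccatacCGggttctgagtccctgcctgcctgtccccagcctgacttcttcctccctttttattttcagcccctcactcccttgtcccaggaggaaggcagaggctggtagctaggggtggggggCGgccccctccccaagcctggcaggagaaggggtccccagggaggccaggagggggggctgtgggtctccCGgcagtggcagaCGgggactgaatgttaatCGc
The stretch has 5 CpG in capitals. The RefSeq start of GRIN2D lies upstream of the GENCODE start given above, and that of GRIN2A downstream, so the GRIN2A window lies within the GENCODE gene. The left and right parts of the RE1 element, the site of the neuronal gene repressor REST, were searched on both strands as TTCAGCACC and GGACAG, which do not overlap each other. TTCAGCACC was in 0 of the 7 windows and in 0.376% of all promoters. GGACAG was in the GRIN2D window alone of the 7 and in 20.5% of all promoters. These matches describe letters only, and methylation was not measured.

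Library totals ran from 12517593 to 18556180 counts in CDKO hESC, 16325691 to 18855099 in CTRL hESC, 52121702 to 89723454 in CDKO iMeLC and 91226186 to 109479071 in CTRL iMeLC. A gene at the same share of its library thus has fewer counts, and more relative counting error, in hESC. CPM are counts scaled to a common library total, within each stage except in the stage comparisons. Summed CPM of 9 pluripotency markers, POU5F1 and SOX2 among them, was 11856 to 13770 in CDKO hESC and 11715 to 12886 in CTRL hESC, and 6338 to 6670 in CDKO iMeLC and 5539 to 6688 in CTRL iMeLC. Mesendoderm markers such as TBXT and EOMES summed to 81.2 to 234 CPM in CDKO hESC and 32.5 to 65.7 CPM in CTRL hESC, and to 794 to 1023 CPM in CDKO iMeLC and 205 to 895 CPM in CTRL iMeLC. TET1 itself had a CDKO over CTRL log2 difference of 0.25 in hESC (SE 0.0899, adjusted p = 0.209) and 0.093 in iMeLC (SE 0.0876, adjusted p = 0.577) by edgeR's quasi-likelihood test with Benjamini-Hochberg adjustment. These whole-gene counts cannot show loss of the exons that encode the catalytic domain. The library CTRL1101 iMeLC stands apart: without it 2646 genes passed in iMeLC, against 69 with it. CDKO hESC 3 stands apart in 5 endoderm markers, SOX17 and FOXA2 among them, with a sum of 163 CPM.

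GRIN1, the obligatory subunit gene, was lower in CDKO than in CTRL at both stages, and lower in iMeLC than in hESC in both genotypes. GRIN2D was the highest member per kb at every stage and genotype and was lower in iMeLC. GRIN2A and GRIN2B stayed within 1 log2 unit between stages in either genotype, and GRIN2B was called lower in iMeLC than in hESC in CDKO. GRIN2C and GRIN3B were near 1 CPM or below, and GRIN3A was close to the counting floor.

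In CDKO hESC 1 to 3, GRIN1 had 28, 32 and 54 counts, or 2.29, 1.76 and 3.12 CPM, against 91, 121 and 199 counts, or 5.6, 6.85 and 10.3 CPM, in CTRL hESC 1 to 3. Every CDKO library lay below every CTRL library, which held for 10.9% of the genes tested in hESC. The means were 2.39 ± 0.687 CPM in CDKO and 7.59 ± 2.44 CPM in CTRL (SD, n = 3 each), a log2 fold change of -1.67 (SE 0.291) in the fit. Summed over libraries, 114 counts in CDKO stood against 411 in CTRL, a depth-adjusted ratio of 0.306 with a 95% interval of 0.246 to 0.377 that covers counting error only.

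In iMeLC the separation was wider, though the interaction of genotype with stage, given below, was not called for GRIN1. GRIN1 had 9, 26 and 5 counts, or 0.178, 0.298 and 0.0638 CPM, in CDKO1102, CDKO1105 and CDKO1312 iMeLC, against 186, 232 and 214 counts, or 1.94, 2.41 and 1.9 CPM, in CTRL1101, CTRL1106 and CTRL1109 iMeLC. No CDKO library came near the CTRL libraries, and CDKO1312 iMeLC, at 5 counts, was the lowest of all 12. CDKO libraries lay wholly below CTRL libraries for 13.9% of the genes tested in iMeLC. The means were 0.18 ± 0.117 CPM in CDKO and 2.08 ± 0.287 CPM in CTRL (SD, n = 3 each), a log2 fold change of -3.51 (SE 0.515). The summed counts were 40 in CDKO and 632 in CTRL, a ratio of 0.0852 (95% counting interval 0.0603 to 0.117).

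**Figure D1:**
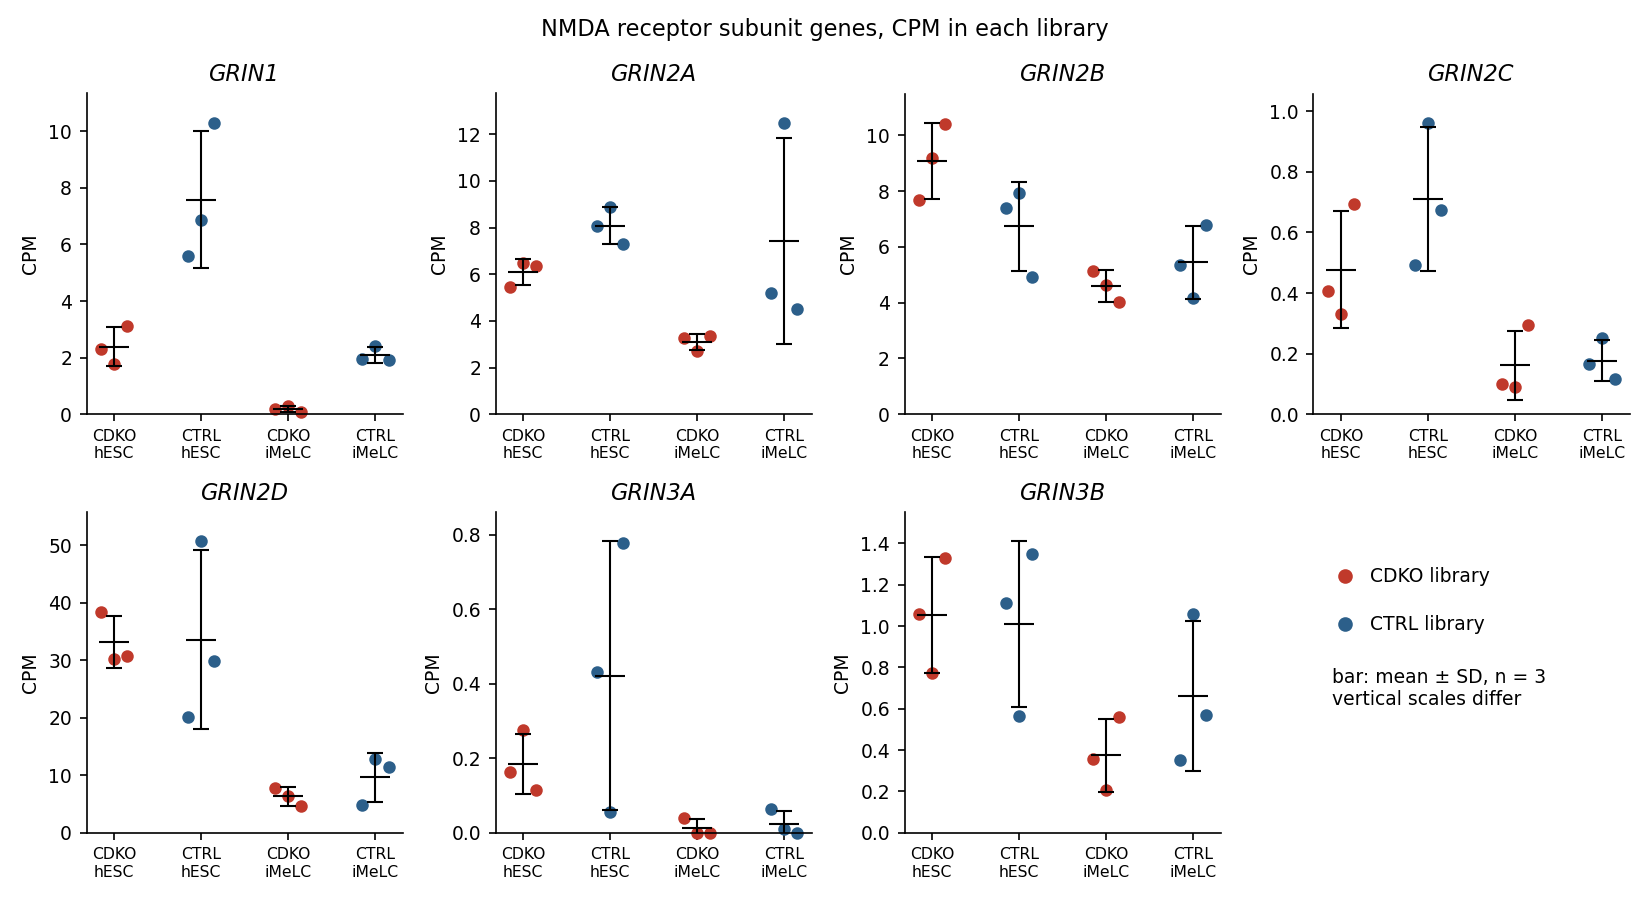
CPM of each subunit gene in every library (vertical axes in CPM, scales differ between genes), with CDKO in red and CTRL in blue and bars for mean ± SD of 3 libraries. GRIN1 in CDKO iMeLC sits at 0.0638 to 0.298 CPM, below the 1.9 to 2.41 CPM of CTRL iMeLC, and GRIN2D is lower in iMeLC than in hESC in both genotypes. CPM were scaled within each stage and are not on a common scale between stages.

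The fold changes and calls came from fits over all genes, in which a gene was called at an adjusted p under 0.05. GRIN1 was the single member called in each genotype comparison, lower in both. In hESC 1.31% of 17222 tested genes were called in either direction and 0.714% lower, and in iMeLC 0.345% of 19999 in either direction and 0.265% lower. These shares are given as background, and nothing is read from the members' count because the family was chosen on this contrast. GRIN1's call in hESC was lost without any 1 of CDKO hESC 1, 2 or 3, with log2 fold changes of -1.64, -1.47 and -1.92, and in a fit over 12 libraries (-1.67). In iMeLC it held without CTRL1101 iMeLC (-3.55) and was lost without any 1 of the other 5 libraries, where the log2 fold change ran from -4.16 to -3.09.

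Among the glutamate-binding subunits, GRIN2A had 67, 118 and 110 counts in CDKO hESC (5.47, 6.5 and 6.36 CPM) and 131, 157 and 141 counts in CTRL hESC (8.06, 8.89 and 7.31 CPM). The CDKO libraries lay below the CTRL libraries by a narrow margin. In iMeLC it had 165, 237 and 262 counts in CDKO (3.26, 2.71 and 3.34 CPM) and 500, 1197 and 511 counts in CTRL (5.21, 12.5 and 4.53 CPM). Again no libraries overlapped, and CTRL1106 iMeLC stood far above the other two CTRL libraries. The log2 fold changes were -0.40 in hESC (SE 0.162) and -1.25 in iMeLC (SE 0.387), and neither was called. Without CTRL1106 iMeLC the iMeLC value was -0.65, and GRIN2A was called in iMeLC by DESeq2 and by the fit over 12 libraries. CDKO libraries lay wholly below CTRL libraries for 10.9% of the genes tested in hESC and 13.9% in iMeLC.

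GRIN2B, the GluN2 gene of the early brain, had 94, 167 and 179 counts in CDKO hESC (7.68, 9.2 and 10.4 CPM), against 120, 140 and 95 in CTRL hESC (7.38, 7.92 and 4.93 CPM). CDKO hESC 1 fell among the CTRL libraries. In iMeLC the counts were 260, 406 and 315 in CDKO (5.13, 4.65 and 4.02 CPM) and 515, 401 and 767 in CTRL (5.36, 4.17 and 6.8 CPM), with overlapping groups. The log2 fold changes were 0.44 in hESC (SE 0.208) and -0.24 in iMeLC (SE 0.23), neither called.

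GRIN2D had 470, 548 and 532 counts in CDKO hESC (38.4, 30.2 and 30.8 CPM) and 328, 895 and 576 in CTRL hESC (20.2, 50.7 and 29.9 CPM). CTRL hESC held both the lowest and the highest library. In iMeLC it had 399, 562 and 365 counts in CDKO (7.87, 6.44 and 4.66 CPM) and 462, 1234 and 1285 in CTRL (4.81, 12.8 and 11.4 CPM). Here CTRL1101 iMeLC fell among the CDKO libraries and the other two CTRL libraries lay above them. The log2 fold changes were -0.025 in hESC (SE 0.269) and -0.62 in iMeLC (SE 0.367), neither called. Without CTRL1101 iMeLC the iMeLC value was -0.94 and was called, and without CTRL hESC 2 the hESC value turned to 0.40, not called.

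GRIN2C, the cerebellar GluN2 gene of the adult brain, was sparse, with 5 to 12 counts in CDKO hESC and 8 to 17 in CTRL hESC, and 5 to 23 in CDKO iMeLC and 13 to 24 in CTRL iMeLC. Its groups overlapped at both stages, with log2 fold changes of -0.56 (SE 0.462) in hESC and -0.12 (SE 0.666) in iMeLC, neither called. GRIN3B had 13 to 23 counts in CDKO hESC and 10 to 26 in CTRL hESC, and 18 to 44 in CDKO iMeLC and 34 to 102 in CTRL iMeLC. Its log2 fold changes were 0.058 (SE 0.405) in hESC and -0.82 (SE 0.558) in iMeLC, neither called. TMEM259, whose exons overlap those of GRIN3B, averaged 131 to 167 CPM in the 4 groups, so the small GRIN3B counts are uncertain.

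GRIN3A did not pass the filter on low counts with all libraries in, so 6 of the 7 members were tested. It had 2, 5 and 2 counts in CDKO hESC, against 7, 1 and 15 in CTRL hESC, and 2, 0 and 0 in CDKO iMeLC, against 6, 1 and 0 in CTRL iMeLC. The groups overlapped at both stages, and the hESC difference of 9 counts in CDKO to 23 in CTRL (ratio 0.432, 95% counting interval 0.176 to 0.968) rests largely on CTRL hESC 3.

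**Figure D2:**
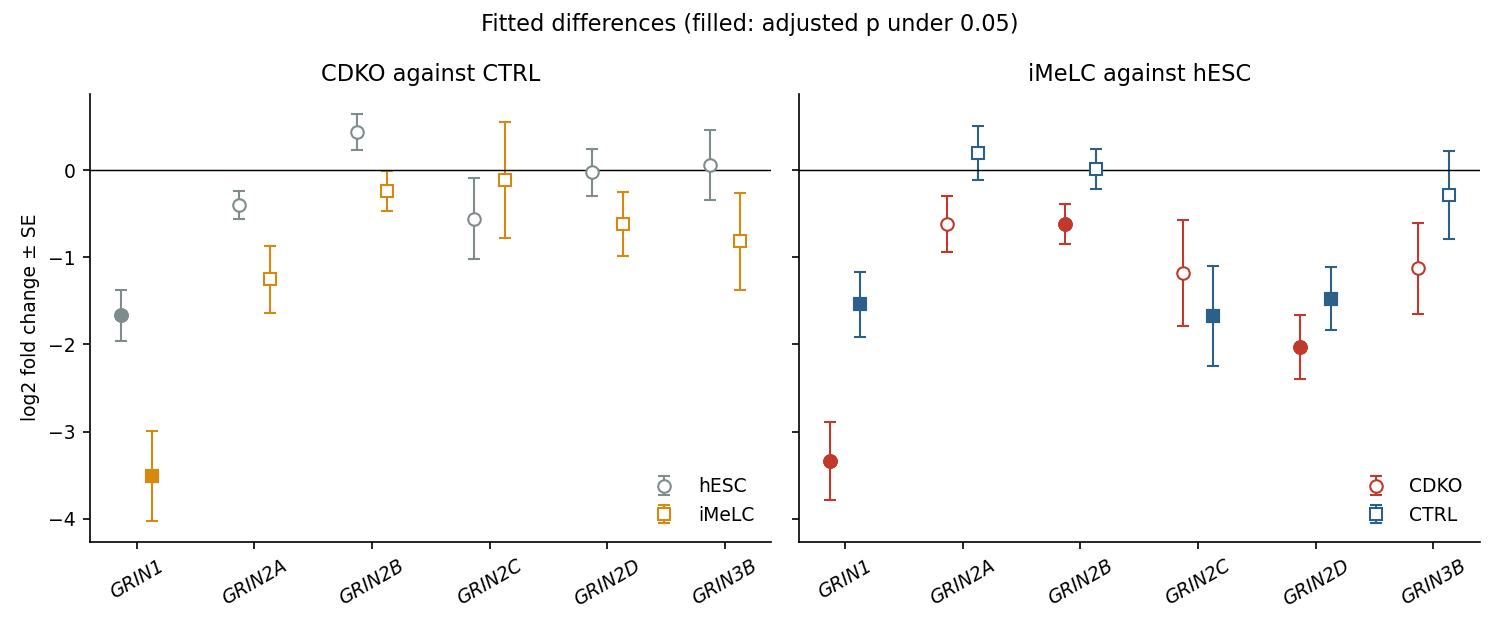
Log2 fold changes (vertical axis, ± SE) of the 6 tested members, CDKO over CTRL in each stage on the left and iMeLC over hESC in each genotype on the right, with filled symbols for an adjusted p under 0.05. GRIN1 stands lowest in both genotype comparisons, at -1.67 in hESC and -3.51 in iMeLC, and all called stage differences lie below 0.

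The stage comparisons ask how the genes differed between hESC and iMeLC. Both use the fit over 12 libraries, whose scaling gives slightly different CPM. The 2 stages were counted in separate tables of different dates and depths, and an effect of stage and an effect of table cannot be told apart. In bulk RNA, fewer cells of a type and less RNA per cell cannot be told apart either.

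Of 6 members tested, 3 were called lower and 0 higher in CDKO iMeLC than in CDKO hESC, where 27.7% of 20262 genes were called lower and 59.8% in either direction. In CTRL, 3 were called lower and 0 higher, where 19.9% were called lower and 49.4% in either direction. GRIN1 and GRIN2D were called in both genotypes. GRIN1 averaged 0.205 ± 0.135 CPM in CDKO iMeLC and 2.12 ± 0.61 CPM in CDKO hESC, which is -3.34 on the log2 scale (SE 0.451, adjusted p = 3.33e-05, edgeR's quasi-likelihood test). In CTRL it averaged 2.32 ± 0.323 CPM in iMeLC and 6.75 ± 2.14 CPM in hESC, which is -1.54 on the log2 scale (SE 0.375, adjusted p = 0.0041, same edgeR test). Every iMeLC library lay below every hESC library in both genotypes. Both calls held in all 9 alternatives run for each, with adjusted p up to 0.000294 in CDKO and 0.0315 in CTRL by edgeR. The alternatives reuse the libraries whose levels were known at the choice of the family, so they are no independent support.

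GRIN2D averaged 7.19 ± 1.81 CPM in CDKO iMeLC and 29.3 ± 4.05 CPM in CDKO hESC, and 10.8 ± 4.72 CPM in CTRL iMeLC and 29.9 ± 13.9 CPM in CTRL hESC. Again every iMeLC library lay below every hESC library. The log2 fold changes were -2.03 in CDKO (SE 0.37, adjusted p = 0.000414, edgeR) and -1.47 in CTRL (SE 0.36, adjusted p = 0.00422, edgeR), and both calls held in all 9 alternatives run for each. Libraries lay wholly lower in iMeLC for 34.6% of genes in CDKO and 24.3% in CTRL.

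The other called member differed between genotypes. GRIN2B was called lower in CDKO, at 5.23 ± 0.624 CPM in iMeLC and 8.03 ± 1.19 CPM in hESC (log2 fold change -0.62, SE 0.229, adjusted p = 0.0319, edgeR), and stood at 0.015 in CTRL (SE 0.228, adjusted p = 0.962, edgeR). GRIN2C was called lower in CTRL, at 0.198 ± 0.0761 CPM in iMeLC and 0.632 ± 0.212 CPM in hESC (log2 fold change -1.67, SE 0.575, adjusted p = 0.0283, edgeR), and stood at -1.18 in CDKO (SE 0.607, adjusted p = 0.109, edgeR). With all libraries in, GRIN2C passed the filter on low counts through its hESC libraries, where its level was higher. Its stage call is thus a description and no support for a stage difference. The GRIN2B call was lost without CDKO hESC 2 (adjusted p = 0.086), CDKO hESC 3 (0.115) or CDKO1312 iMeLC (0.0656), and the GRIN2C call without CTRL hESC 2 (0.13), CTRL hESC 3 (0.071) or CTRL1109 iMeLC (0.0671). GRIN2A stood at -0.62 in CDKO (SE 0.32) and 0.20 in CTRL (SE 0.311), and GRIN3B at -1.13 in CDKO (SE 0.522) and -0.29 in CTRL (SE 0.501), none of them called.

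GRIN3A, left out of those fits by its low counts, had 2 counts over the CDKO iMeLC libraries and 9 over the CDKO hESC libraries (depth-adjusted ratio 0.0482, 95% counting interval 0.00507 to 0.233), and 7 in CTRL iMeLC and 23 in CTRL hESC (0.0541, 0.0196 to 0.13). It entered the stage fits without the filter or with an hESC library left out. With an hESC library left out, it passed the filter through the remaining hESC libraries, where its level was higher. Calls on it are thus a description and no support for a stage difference. In CTRL it was called lower in iMeLC without the filter (log2 fold change -3.65, adjusted p = 0.0328, edgeR), without CTRL hESC 1 (adjusted p = 0.0496) and without CTRL hESC 2 (adjusted p = 0.0163), and not without CTRL hESC 3 (adjusted p = 0.133). In CDKO it was not called in the 4 fits that held it, with adjusted p of 0.0659 to 0.167 by edgeR.

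Whether the genotype difference itself changed with stage was asked by the interaction, which was called for 0 of 6 members and for 0.0197% of 20262 genes by edgeR. At an unadjusted p under 0.05, 2275 genes (11.2%) passed, GRIN1 among them, and DESeq2 called 217 genes (1.33% of those it gave an adjusted p) and 0 members. GRIN1 had an interaction, the CDKO over CTRL log2 difference in iMeLC minus that in hESC, of -1.79 (SE 0.573, unadjusted p = 0.00814, adjusted p = 0.309, edgeR). Over 15 alternatives its adjusted p ran from 0.0685 to 0.589. The other members stood at -0.81 (GRIN2A, SE 0.446), -0.64 (GRIN2B, SE 0.323), -0.55 (GRIN2D, SE 0.504), -0.84 (GRIN3B, SE 0.721) and 0.49 (GRIN2C, SE 0.831). The comparisons above share libraries, so their values for a member are not independent of each other. The stage and interaction values are, like the genotype values, a description of a family chosen with its levels known.

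Levels were compared between members as CPM per kb of merged exons. GRIN2D led, at 6.5 ± 0.898 CPM per kb in CDKO hESC and 6.59 ± 3.06 in CTRL hESC, and 1.24 ± 0.316 in CDKO iMeLC and 1.9 ± 0.84 in CTRL iMeLC. Its level lay at the 71.9th percentile of 19684 protein-coding genes in CDKO hESC and the 72.2nd in CTRL hESC, and at the 47.2nd in CDKO iMeLC and the 51.3rd in CTRL iMeLC. GRIN1 came next in CTRL hESC, at 1.13 ± 0.363 CPM per kb and clear of GRIN2A (0.484 ± 0.0472). In CDKO hESC GRIN1, at 0.355 ± 0.102 CPM per kb, overlapped its neighbours GRIN2A (0.366) and GRIN3B (0.321), which in turn overlapped GRIN2B (0.293). GRIN2C (0.0557) and GRIN3A (0.0228) closed the order in CDKO hESC.

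In CDKO iMeLC GRIN1 stood at 0.0267 ± 0.0174 CPM per kb, below GRIN2A (0.186), GRIN2B (0.149) and GRIN3B (0.114) and overlapping GRIN2C (0.0188). In CTRL iMeLC it stood at 0.31 ± 0.0426, overlapping GRIN2A (0.443) above it and GRIN3B (0.201) below it. GRIN1 lay at the 21.4th percentile of protein-coding genes in CDKO iMeLC and the 35.4th in CTRL iMeLC, and at the 34.2nd in CDKO hESC and the 44.2nd in CTRL hESC. GRIN3A was last in every group. The order of the middle members depends on the length used, since the merged exons of GRIN2B are 30.94 kb and its longest coding sequence 4.45 kb. Per kb of coding length GRIN2B came second in CDKO hESC (2.04 ± 0.302) and CDKO iMeLC (1.03 ± 0.125), and GRIN2D still led in all 4 groups but overlapped GRIN2A in CTRL iMeLC. By that length GRIN1 (2.64 ± 0.85) overlapped GRIN2A (1.84 ± 0.179) in CTRL hESC. In CDKO hESC GRIN1 (0.831 ± 0.239) then lay below GRIN2A (1.39 ± 0.127) with no overlap.

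GluN2 subunits need GluN1 beside them, so the ratio of GRIN1 to the summed GRIN2 level per kb was taken in every library. The sum leaves out GRIN3A and GRIN3B. It was 0.0416, 0.0394 and 0.0679 in CDKO hESC 1 to 3, against 0.175, 0.0938 and 0.234 in CTRL hESC 1 to 3. In iMeLC it was 0.0138, 0.0279 and 0.00741 in CDKO1102, CDKO1105 and CDKO1312, against 0.199, 0.105 and 0.103 in CTRL1101, CTRL1106 and CTRL1109. All CDKO libraries lay below all CTRL libraries at each stage, also with coding length, where the ratio was 0.0549 to 0.0933 in CDKO hESC and 0.143 to 0.345 in CTRL hESC, and 0.00763 to 0.0314 in CDKO iMeLC and 0.119 to 0.185 in CTRL iMeLC. The ratio carries the GRIN1 difference on which the family was chosen, and is given without a test.

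GRIN2D made up most of the summed GRIN2 level per kb of merged exons. Its share was 88.4% to 92.4% in CDKO hESC and 83.6% to 91.7% in CTRL hESC, and 71.5% to 80.6% in CDKO iMeLC and 65.2% to 81.6% in CTRL iMeLC. With coding length the mean share was 69.7% in CDKO hESC and 68.5% in CTRL hESC, and 46.4% in CDKO iMeLC and 43.6% in CTRL iMeLC. By either length the genotypes overlapped within a stage and the iMeLC libraries lay below the hESC libraries. GRIN2A reached 21.5% and 21.7% in CTRL1101 and CTRL1106 iMeLC by merged exons, and 9.9% to 15.7% in the other four iMeLC libraries.

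**Figure D3:**
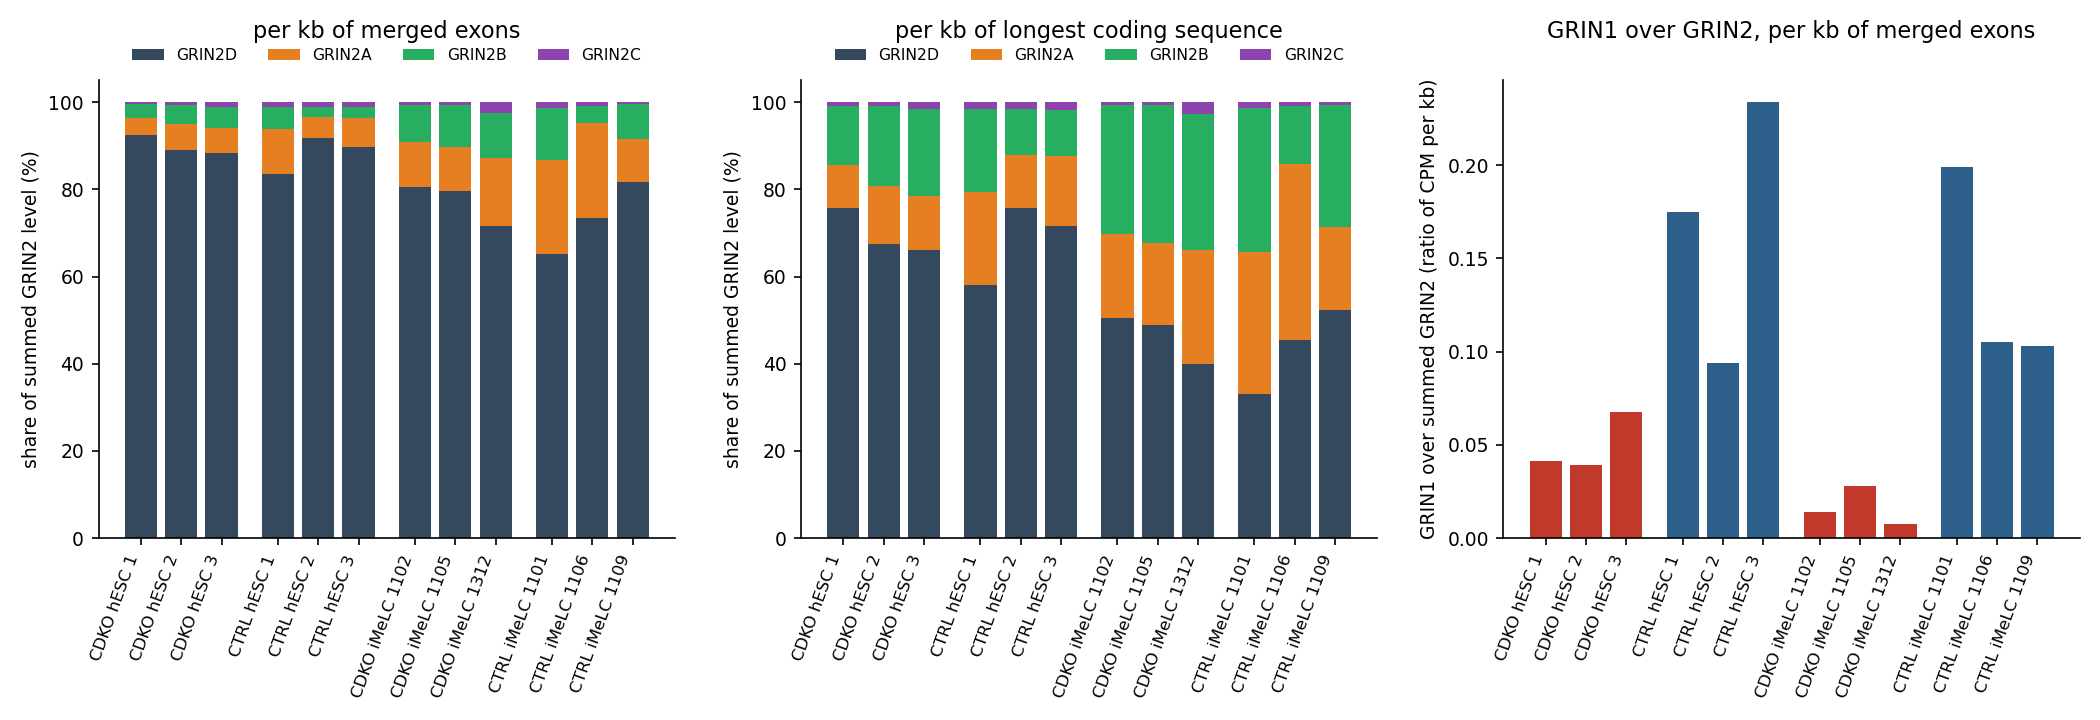
Share of each gene in the summed GRIN2 level (%, left and middle, by merged exon and coding length) and ratio of GRIN1 to that sum (right), 1 bar per library. The GRIN2D share is lower in iMeLC than in hESC by both lengths, and the ratio in CDKO iMeLC (0.00741 to 0.0279) lies below that in CTRL iMeLC (0.103 to 0.199).

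Because these genes are best known from neurons, 12 neuron markers were read beside them. Their summed level was 181 to 202 CPM in CDKO hESC and 143 to 187 CPM in CTRL hESC, and 126 to 131 CPM in CDKO iMeLC and 134 to 171 CPM in CTRL iMeLC, with none of the 12 at 0 in every library of a group. In hESC the CDKO and CTRL sums overlapped, and single markers went both ways. RBFOX3 averaged 8.19 CPM in CDKO hESC and 11.7 CPM in CTRL hESC, and DCX 23 and 19.2 CPM. In iMeLC all CDKO sums lay below all CTRL sums, by a narrow margin (131 against 134 CPM). Single markers went both ways there too. INA averaged 39.9 CPM in CDKO iMeLC and 45.1 CPM in CTRL iMeLC, and GAP43 31.6 and 28.2 CPM. The vesicle calcium sensor SYT1 was called lower in CDKO iMeLC, 1 of 11 markers tested, and averaged 26.3 CPM in CDKO and 46.2 CPM in CTRL. That was the largest difference in mean CPM among the 12 markers in iMeLC. The neurofilament gene INA was called higher in CDKO hESC, 1 of 9 tested, at 63.7 CPM in CDKO and 36.6 CPM in CTRL. Called genes made up 1.31% of all tested in hESC and 0.345% in iMeLC. Endoderm markers moved with genotype in iMeLC, summing to 131 to 293 CPM in CDKO iMeLC and 11.8 to 112 CPM in CTRL iMeLC with no overlap, against 12.4 to 163 CPM in CDKO hESC and 6.4 to 23.8 CPM in CTRL hESC. Of the 5 endoderm markers, edgeR called 0 by genotype at either stage. The part of neuron-like or endoderm-like cells in the GRIN1 difference was not tested.

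None of the tested genes around GRIN1 was called by genotype in edgeR, which called 1.31% of all genes in hESC and 0.345% in iMeLC. Over all genes, 16.1% in hESC and 19.8% in iMeLC had an unadjusted p under 0.05, and DESeq2 called 3.59% in hESC and 8.32% in iMeLC of those it gave an adjusted p. Of 29 counted neighbours within 100 kb, 20 were tested in hESC, where 3 had an unadjusted p under 0.05 and DESeq2 called 1 (DPP7). In iMeLC 23 were tested, 2 had an unadjusted p under 0.05 and DESeq2 called 0. Their log2 fold changes ran from -0.58 to 0.73 in hESC and from -1.07 to 0.86 in iMeLC, while GRIN1 stood at -1.67 and -3.51. LRRC26, which overlaps GRIN1 on the opposite strand, had summed counts of 40 in CDKO hESC and 28 in CTRL hESC, and 44 in CDKO iMeLC and 33 in CTRL iMeLC. ANAPC2, a subunit gene of the anaphase-promoting complex, averaged 36.3 ± 2.82 CPM in CDKO hESC and 34.8 ± 3.58 CPM in CTRL hESC, and 39.9 ± 1.98 CPM in CDKO iMeLC and 37.4 ± 2.92 CPM in CTRL iMeLC. Of the tested neighbours of the other members, 31 in hESC and 34 in iMeLC, edgeR called 0 at either stage, 10 and 11 had an unadjusted p under 0.05, and DESeq2 called 2 and 4.

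**Figure D4:**
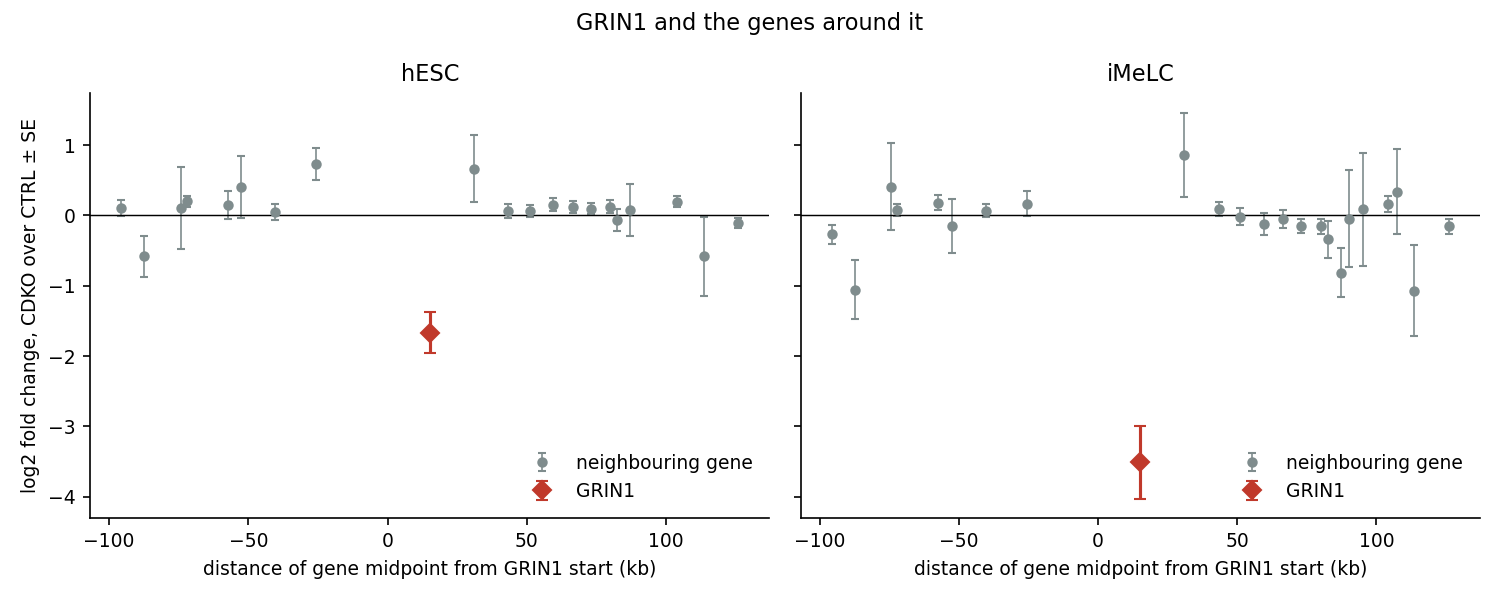
Log2 fold change (CDKO over CTRL, ± SE) of GRIN1 and of tested genes within 100 kb, against the distance of each gene's midpoint from the GRIN1 start in kb. GRIN1 lies at -1.67 in hESC and -3.51 in iMeLC, and the neighbours between -1.07 and 0.86.

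Across 12 libraries, with each stage's mean removed, the genes whose log2 CPM followed GRIN1 most closely of 14119 compared were AC010896.1 (Pearson's r 0.976), the interferon-induced GTPase gene MX2 (0.962) and GHDC (0.958), and 0.475% of genes exceeded an r of 0.9. This likeness includes the genotype difference, and libraries of a stage share a table and a range of depth. MX2 averaged 0.598 ± 0.585 CPM in CDKO hESC and 3.73 ± 0.622 CPM in CTRL hESC, and 0.0274 ± 0.0299 CPM in CDKO iMeLC and 2.9 ± 0.602 CPM in CTRL iMeLC. It was called lower at both stages, and GHDC in hESC (log2 fold change -1.05, SE 0.189) but not in iMeLC (adjusted p = 0.0585, edgeR). AC010896.1 was called at neither stage (adjusted p = 0.365 in hESC and 0.141 in iMeLC, edgeR). GRIN2A was most like the link protein gene HAPLN3 (0.97), ATCAY (0.932) and the kinase gene BRSK2 (0.932), and GRIN2D like AC022101.1 (0.932), the glycosyltransferase gene GCNT2 (0.909) and DPPA2 (0.908). GRIN2B was most like DSEL (0.926), the adiponectin receptor gene ADIPOR1 (0.88) and RGS16 (0.87). GRIN2C followed the aminotransferase gene BCAT2 (0.91), AC015909.1 (0.865) and ZBTB46 (0.848), and GRIN3B followed ANKRD36B (0.904), ZDHHC24 (0.898) and the sphingosine kinase gene SPHK2 (0.895).

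A pathway list of 100 genes was read from the same fits. It held other glutamate receptor genes, partners and effectors of the receptor, genes of glutamate and co-agonist supply, and the REST complex. In hESC 1 of 88 tested was called higher in CDKO and 0 lower, and in iMeLC 0 of 90 were called higher and 1 lower. The edgeR shares over all genes in either direction were 1.31% in hESC and 0.345% in iMeLC. The call in hESC was GRM7, a presynaptic metabotropic glutamate receptor, at 3.58 ± 0.537 CPM in CDKO and 1.34 ± 0.0856 CPM in CTRL (log2 fold change 1.41, SE 0.244, adjusted p = 0.0289, edgeR). The call in iMeLC was SLC1A6, a glutamate transporter, at 1.84 ± 0.502 CPM in CDKO and 7.14 ± 0.973 CPM in CTRL (log2 fold change -1.96, SE 0.264, adjusted p = 0.0386, edgeR). DESeq2 called 6 of the tested pathway genes in hESC and 10 in iMeLC. The other ionotropic glutamate receptor genes had 0 edgeR calls of 8 tested in hESC (3 at an unadjusted p under 0.05, 1 by DESeq2) and 0 of 9 in iMeLC (4 at an unadjusted p under 0.05, 3 by DESeq2). All counts at an unadjusted p stand against 16.1% of all genes in hESC and 19.8% in iMeLC, and those by DESeq2 against 3.59% and 8.32%. Of 12 REST complex genes edgeR called 0 at either stage, 4 in hESC and 1 in iMeLC had an unadjusted p under 0.05, and DESeq2 called REST itself in hESC and 0 in iMeLC. The REST complex genes had median log2 fold changes of -0.0062 in hESC and 0.0104 in iMeLC, against -0.0018 and -0.028 over all genes. The interaction was called by edgeR for 0 of 95 pathway genes, 15 had an unadjusted p under 0.05, against 11.2% of all genes, and DESeq2 called 0.

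Between stages, 39 of 95 tested pathway genes were called higher and 26 lower in CDKO iMeLC, and 36 higher and 22 lower in CTRL iMeLC, against the background shares of 32.1% higher and 27.7% lower in CDKO and 29.5% higher and 19.9% lower in CTRL. Among AMPA receptor subunits, which carry fast excitatory current, GRIA4 was lower (log2 fold change -2.80 in CDKO and -2.15 in CTRL) and GRIA3 higher (3.25 in CDKO and 2.07 in CTRL). GRIA2 had 0 CPM in every iMeLC library and 0.336 ± 0.0271 CPM in CDKO hESC and 0.162 ± 0.0938 CPM in CTRL hESC. The kainate receptor genes GRIK3 (-1.64 in CDKO and -1.51 in CTRL) and GRIK1 (-2.25 in CDKO and -2.51 in CTRL) were lower, as was the metabotropic receptor gene GRM2 (-1.73 in CDKO and -1.07 in CTRL).

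The postsynaptic scaffold and trafficking list had 9 of 25 called higher and 7 lower in CDKO, and 7 higher and 6 lower in CTRL. DLG1, a scaffold related to PSD-95, was higher (1.84 in CDKO and 1.48 in CTRL), while the scaffold genes DLGAP3 (-2.68 in CDKO and -1.77 in CTRL) and SHANK2 (-1.91 in CDKO and -1.52 in CTRL) were lower. Of 20 kinases, phosphatases and calcium effectors, 13 were called higher and 3 lower in CDKO, and 11 higher and 4 lower in CTRL. Over all genes 32.1% were called higher and 27.7% lower in CDKO, and 29.5% and 19.9% in CTRL. The median log2 fold changes of these effectors were 0.55 in CDKO and 0.275 in CTRL, against -0.079 and -0.0135 over all genes. The co-agonist list below had medians of 0.575 and 0.447. Those higher included the calcineurin subunit gene PPP3CC (3.22 in CDKO and 3.08 in CTRL) and the calcium/calmodulin kinase gene CAMK2D (2.13 in CDKO and 1.70 in CTRL), and those called lower are not named here.

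In the list for supply of the co-agonists glycine and D-serine, 6 of 11 were called higher and 4 lower in CDKO, and 5 higher and 2 lower in CTRL. For this and the other lists of this paragraph, the shares over all genes were 32.1% higher and 27.7% lower in CDKO, and 29.5% and 19.9% in CTRL. The co-agonist genes called lower are not named here. Since glycine cleavage removes a co-agonist, these counts give no direction of supply. The serine synthesis gene PSPH (1.16 in CDKO and 1.48 in CTRL), the glycine cleavage gene GLDC (0.85 in CDKO and 0.87 in CTRL) and SHMT1, which converts serine to glycine (0.66 in CDKO and 0.53 in CTRL), were higher. Among genes of glutamate transport and synthesis, the transporter gene SLC1A1 (2.27 in CDKO and 1.63 in CTRL) was higher, and the vesicular glutamate transporter gene SLC17A7 (-2.25 in CDKO and -1.62 in CTRL) was lower. Of 12 REST complex genes 6 were called higher and 2 lower in CDKO, and 5 higher and 1 lower in CTRL. The demethylase gene KDM1A (1.37 in CDKO and 1.18 in CTRL), the deacetylase gene HDAC2 (1.07 in CDKO and 0.71 in CTRL), the methyltransferase gene EHMT1 (0.78 in CDKO and 0.82 in CTRL) and the corepressor gene SIN3A (0.70 in CDKO and 0.58 in CTRL) were among those higher. Every stage difference named here carries the limit that stage and table cannot be told apart.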

How the data were processed

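Whole-number read counts per gene symbol were deposited by the authors, not normalised, with a separate table for each stage. Per the labels' protocols, RNA was purified with the RNeasy micro kit, and the SMARTer Stranded Total RNA kit gave the libraries. Per the submitters' processing notes, the tools were cutadapt, FastQC and edgeR, with the GRCh38 build. No source used here gives the aligner, counter, annotation or strand setting. All 7 members matched 1 gene of GENCODE release 29 each, as did 34217 of the 36762 symbols (93.1%).

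From these counts, edgeR 4.0.16 (R 4.3.3) was run with TMM scaling, filterByExpr (minimum count 10) and the two-sided quasi-likelihood test, and p-values were adjusted by Benjamini-Hochberg over all genes tested. A gene was called at an adjusted p under 0.05. Genotype was compared within each stage (6 libraries), and stage and the interaction over 12 libraries with 4 group means. SEs were derived from the test. Scripts were tested on simulated data. P-values rest on the spread between libraries. Line, culture and preparation cannot be told apart in it, and fits over both stages take no account of shared lines. Replicates differed by more than sampling noise, with a chi-square of 4.04 to 181 per gene, so none was treated as a duplicate. Alternatives were DESeq2 1.42.0, its size factors, no filter on low counts, a fit over 12 libraries and leaving out each library. Coding length was added after the data were seen.

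The members and gene lists were chosen with earlier results of these data known. Text names all members, TET1, of each list the genes that were among the 4 called with the smallest adjusted p in a genotype comparison or in both stage comparisons, and for each member the 3 most alike genes of at least 1 mean CPM (log2 with a prior count of 2). DPP7, REST, ANAPC2 and the called neuron markers were named after their values were seen. Some genes that the rule names are not reported here.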

Additional observations from a re-analysis of the deposited data

How the results depend on the processing

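Genes called in hESC numbered 226 and were 1228 without the filter on low counts, 618 by DESeq2, 72 in the fit over 12 libraries and 5 to 493 when 1 library was left out. In iMeLC the 69 became 428 without the filter, 1566 by DESeq2, 1310 in the fit over 12 libraries and 15 to 2646 when 1 library was left out. For the interaction the 4 became 29 without the filter, 217 by DESeq2 and 1 to 439 when 1 library was left out. Members called by genotype (1 at each stage) were 0 in hESC in the fit over 12 libraries and 0 to 1 with a library left out, and in iMeLC 2 by DESeq2, 2 in the fit over 12 libraries and 0 to 2 with a library left out. The cause was not tested.

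Directions turned for members that were not called. With 1 library left out, the hESC log2 fold change of CDKO over CTRL ran from -0.29 to 0.40 for GRIN2D and from -0.23 to 0.34 for GRIN3B, positive for GRIN2D in the absence of CTRL hESC 2 (0.40), of CDKO hESC 2 (0.040) and of CDKO hESC 3 (0.026), and negative for GRIN3B without CTRL hESC 2 (-0.23) or CDKO hESC 3 (-0.16). In iMeLC that of GRIN2C ran from -0.88 to 0.21, positive without CTRL1106 (0.21), CDKO1102 (0.12) or CDKO1105 (0.18). Between stages in CTRL, GRIN2B stood at -0.077 with DESeq2's size factors and -0.076 by DESeq2, and ran from -0.22 to 0.16 with 1 library left out, negative without CTRL hESC 3 (-0.14), CTRL1101 (-0.023) or CTRL1109 (-0.22). There GRIN3B ran from -0.85 to 0.019, positive without CTRL hESC 3, and GRIN2A from -0.46 to 0.41, negative without CTRL1106. The GRIN2C interaction ran from -0.30 to 0.85, negative without CDKO1312 iMeLC. Without that library the CDKO stage difference was called for GRIN2C (-2.02) and GRIN3B (-1.63). Without the filter the stage calls of GRIN2C in CTRL (adjusted p = 0.0582, edgeR) and GRIN2B in CDKO (0.0586) were lost, and GRIN3A in CTRL was gained (0.0328). GRIN1 kept its direction in every alternative run. Counts of members called between stages and by the interaction stayed within 1.5 times in every alternative, but not always with the same members: in CTRL, GRIN3A was called and GRIN2C not both without the filter and without CTRL hESC 2. No paired analysis was possible because the hESC columns name no line and the CDKO and CTRL lines carry different numbers. Low counts limit GRIN2C, GRIN3A and GRIN3B most. With all libraries in, GRIN2C entered the stage fits through its hESC libraries, as did GRIN3A wherever the filter was on and it was tested.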
